A study of Mus musculus with 95 samples.

Results

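Cell division requires a timed set of genes that is read out in bursts as a cell copies its DNA and then separates the copies. The 38 genes described here cover that set: the replication helicase, DNA synthesis enzymes, the cyclins that mark the step into DNA synthesis and into mitosis, mitotic kinases, the chromosomal passenger complex, spindle and kinetochore proteins, the machinery of mitotic exit, and Foxm1, a transcription factor of the G2 and M phases. They were taken by symbol from the deposited gene count table, where all 38 were found among 55401 rows. Neurons and most cells of the adult cortex, kidney and liver do not divide. In bulk RNA from these organs, transcripts held only by dividing cells come from a small fraction, which can include immune cells, glia and endothelium. Which cells held each of the 38 transcripts was not measured. White adipose tissue holds, beside adipocytes, a stroma of precursor and immune cells that can divide.

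The libraries were polyA RNA-seq of C57BL/6J mice in 3 groups, from the cortex, the liver, the kidney and white fat (WAT). Mice labelled Stim had been kept for 3 months in TLS, a torpor-like state of lowered body temperature and metabolism, and were 205 days old. How that state was brought about, including any transgene, virus or drug, and what the controls received are not stated in the labels. Mice labelled Con were their controls after the same 3 months, also 205 days old, and mice labelled T0 were sampled at the start, at 122 days. Each group had 8 animals, 4 labelled female and 4 labelled male, and the same animals gave all 4 tissues. WAT lacked 1 control animal, which left 7. Animals were perfused with saline before dissection. TLS and T0 mice therefore differ in age as well as in state, whereas TLS and control mice are of one age.

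The libraries held between 4031533 and 29269511 gene counts, with the shallowest in liver. Values are given as CPM (gene counts scaled to library size by the TMM method within a tissue), and a gene was called changed when the adjusted p of edgeR's quasi-likelihood test, with sex as a covariate and Benjamini-Hochberg adjustment over all genes tested in the tissue, was under 0.05. Genes too low for that test were left untested. The test took in 38 members in WAT, 36 in kidney, 33 in cortex and 27 in liver. Where a call rests on few counts, the counts are given. In kidney, the sex labels of T0 animals 4 and 5 are the reverse of those in the other tissues. The defining markers of each tissue were present in its libraries: cortical neuron genes in cortex, tubule genes in kidney, hepatocyte genes in liver and adipocyte genes in WAT. A pair of WAT libraries also held male reproductive tract markers, T0 animal 6 at 4823 CPM and TLS animal 47BE at 2900 CPM. In bulk tissue, fewer cells of a dividing type and less of these transcripts per cell cannot be told apart.

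The promoters of 4 members are shown, Mki67 and Pcna, called in 2 comparisons each, and Ccnb1 and Top2a, which had the smallest p of the 7 members called in 1 whose promoter was matched, because motifs shared by cell division genes lie close to the gene start. The sequences are from RefSeq on GRCm38.p6, 300 bases each, from 250 bases before to 50 after the gene start, written 5′ to 3′ on the gene's strand, which is the minus strand for all 4. Capitals mark matches on either strand to the CCAAT box (CCAAT) and to the cell cycle homology region (TTTGAA or TTCGAA), an element known from promoters of mitotic genes. No 2 matches overlap in these 4 windows. The Mki67 window lies at chr7:135716330-135716629, the Top2a window at chr11:99024140-99024439, the Ccnb1 window at chr13:100786437-100786736 and the Pcna window at chr2:132253131-132253430.
Mki67: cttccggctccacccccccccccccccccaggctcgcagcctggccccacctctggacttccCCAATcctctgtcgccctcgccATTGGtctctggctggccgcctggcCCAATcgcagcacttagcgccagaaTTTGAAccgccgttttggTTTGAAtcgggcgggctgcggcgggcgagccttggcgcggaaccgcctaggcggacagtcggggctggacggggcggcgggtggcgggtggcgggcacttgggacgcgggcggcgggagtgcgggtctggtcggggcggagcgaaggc
Top2a: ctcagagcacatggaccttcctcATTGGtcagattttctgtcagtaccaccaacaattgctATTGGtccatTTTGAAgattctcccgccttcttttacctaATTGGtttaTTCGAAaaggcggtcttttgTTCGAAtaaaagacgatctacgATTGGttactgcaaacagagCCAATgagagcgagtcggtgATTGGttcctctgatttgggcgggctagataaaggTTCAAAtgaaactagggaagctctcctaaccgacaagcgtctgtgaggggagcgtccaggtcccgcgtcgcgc
Ccnb1: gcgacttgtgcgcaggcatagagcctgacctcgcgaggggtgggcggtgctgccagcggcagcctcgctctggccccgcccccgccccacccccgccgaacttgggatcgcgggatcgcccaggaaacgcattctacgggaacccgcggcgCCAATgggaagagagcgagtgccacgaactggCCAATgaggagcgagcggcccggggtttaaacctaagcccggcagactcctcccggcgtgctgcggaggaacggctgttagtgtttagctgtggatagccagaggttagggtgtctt
Pcna: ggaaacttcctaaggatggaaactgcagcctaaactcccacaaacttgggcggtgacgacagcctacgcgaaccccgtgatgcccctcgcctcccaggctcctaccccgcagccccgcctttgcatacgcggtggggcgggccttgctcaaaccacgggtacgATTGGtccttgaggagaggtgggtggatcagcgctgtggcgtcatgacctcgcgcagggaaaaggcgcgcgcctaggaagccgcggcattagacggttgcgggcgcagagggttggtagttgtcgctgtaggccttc

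The Mki67 window held 2 cell cycle homology matches and 3 CCAAT boxes, the Top2a window 4 and 6, and the Ccnb1 window 2 CCAAT boxes with no homology match. The Pcna window held 1 CCAAT box. RefSeq windows were matched for 31 of the 38 members, and those of Aurkb, Kif20a, Mcm4, Ccne2, Foxm1, Tpx2 and Ccna2 were not matched. Shares of members are per gene, and Mcm7 and Prc1, with more than 1 window, counted if any window matched. Shares of all are per window. A cell cycle homology match stood in 61.3% of the 31 members and in 19.2% of 32851 windows of the same length. A CCAAT box stood in 87.1% of the members and in 37.4% of all windows. Both motifs were found in 61.3% of the members and in 7.52% of all windows. An E2F-type match (TTTCCCGC, TTTCGCGC, TTTGCCGC or TTTGGCGC on either strand) stood in 16.1% of the members, which were Mcm3, Mcm5, Mcm6, Mcm7 and Cdk1, and in 2.26% of all windows. Among the 22 matched mitosis members, 17 held a cell cycle homology match and 1 an E2F-type match. Among the 9 matched replication and G1/S members, the counts were 2 and 4. A match is a run of letters and not a measured binding site.

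The first question was where these genes are expressed in control mice. WAT held the highest mean CPM of 31 of the 38 members, cortex and kidney of 3 each, and liver of 1. Liver held the lowest mean of 23 members and cortex of 12, on CPM scaled within each tissue. In a joint edgeR quasi-likelihood fit over the tissues, in which each tissue of control mice was set against the mean of the other 3, 30 members were higher in WAT and 1, Tyms, was lower, with a median log2 difference of 1.07. In cortex 24 members were lower and 3 higher, with a median of −0.90. In liver 13 were lower and 8 higher, with a median of −0.41, and in kidney 6 were lower and 7 higher, with a median of 0.09. The tissues differ in most genes, so the background is wide: 58.8% of all genes tested were called in WAT, 80.1% in cortex, 73.7% in liver and 56.8% in kidney. The median of all genes was −0.32 on the log2 scale in liver and within 0.03 of 0 in the other tissues. The joint fit was scaled over all libraries together, which is approximate because the tissues differ in composition. The counts of higher and lower members depend on that scaling.

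**Figure D1:**
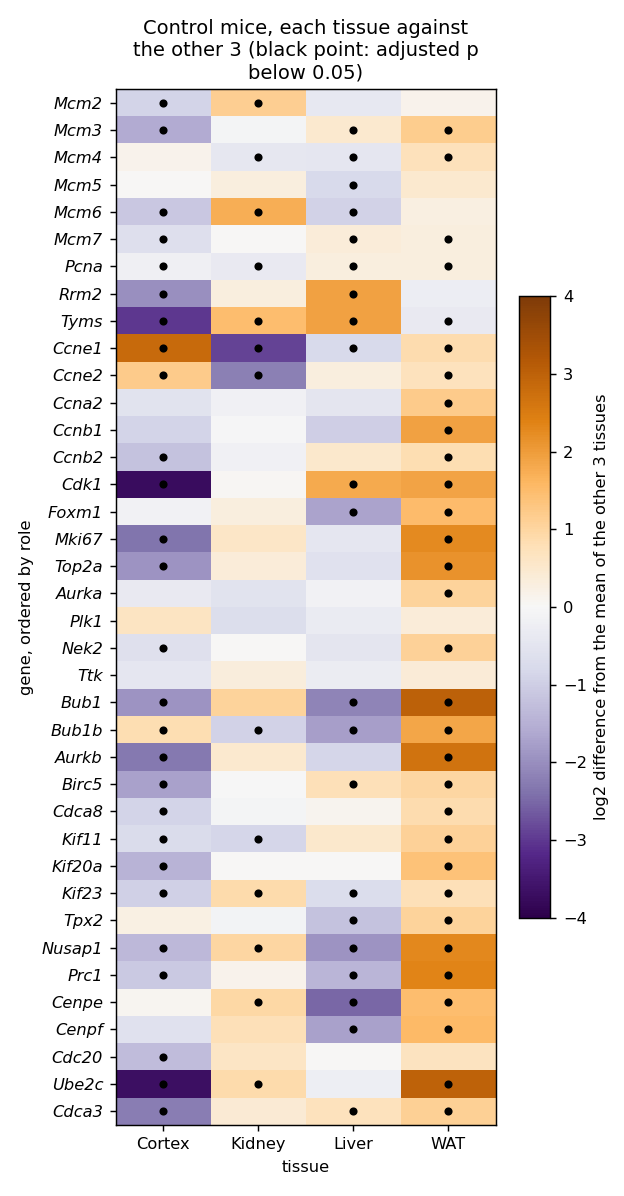
Heat map of the log2 difference of each tissue from the mean of the other 3 in control mice, for the 38 members in rows ordered by role, with a black point where the adjusted p was under 0.05. WAT has 30 members higher, cortex 24 lower, and Ccne1 stands out in cortex at 2.84.

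Mki67, which coats mitotic chromosomes and is the common marker of dividing cells, averaged 8.94 ± 3.08 CPM in WAT and 0.863 ± 0.215 CPM in cortex (SD, n = 7 and 8). Ube2c, the ubiquitin-conjugating enzyme that works with the anaphase-promoting complex, averaged 6.37 ± 1.57 CPM in WAT and 0.183 ± 0.186 CPM in cortex. Cdk1, the kinase that drives entry into mitosis, was 3.72 log2 units below the other tissues in cortex. Several exceptions stood against that order. Ccne1, the G1/S cyclin, averaged 15.5 ± 1.11 CPM in cortex, a log2 difference of 2.84 from the other tissues, while kidney was at 0.72 CPM. Ccne2 and Bub1b, a G1/S cyclin and a spindle checkpoint kinase, were also higher in cortex, by 1.21 and 0.84 on the log2 scale. Mcm6, a helicase subunit, was highest in kidney at 29.4 ± 4.03 CPM, and Tyms, thymidylate synthase, also peaked there at 15.5 ± 2.27 CPM. Rrm2, the small subunit of ribonucleotide reductase, was 1.93 log2 units above the other tissues in liver. Per kilobase of exon, Pcna, the sliding clamp of the replication fork, was the most abundant member in each tissue, at 20.5 CPM per kb in WAT, 15.4 in cortex, 12.4 in kidney and 9.00 in liver.

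In cortex, 4 of the 33 members tested rose in TLS mice against control mice and 0 fell: Mki67, Top2a, Ccnb1 and Ube2c. All 4 are genes of G2 and mitosis. The background in this comparison was 5.41% of genes called in either direction with 2.99% called higher and 2.42% called lower. Of the members tested, 26 had a positive log2 difference, with a median of 0.18, where the median of all genes was 0.00 and 50.6% were positive. Without control animal 9BA4 only Mki67 was called, and without any 1 of control animals A367, E329 or 9916 2 members were called.

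Mki67 was at 0.449 CPM in the lowest control cortex, 0.948 at the median and 1.06 in the highest. In TLS cortex the corresponding values were 1.00, 2.21 and 2.67 CPM, and in T0 cortex 0.603, 1.05 and 2.10 CPM. The TLS range meets the control range only at its lower end, while the T0 range reaches into both. The log2 difference of TLS from control was 1.21 (SE 0.215, adjusted p = 0.00354 by edgeR's quasi-likelihood test), and all 8 TLS animals were above the control mean of their sex. The counts behind these values were 10 to 23 per control library and 17 to 61 per TLS library.

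Top2a, the topoisomerase that untangles chromosomes before they part, was at 0.260, 0.764 and 1.48 CPM in control cortex (lowest, median, highest) and at 0.861, 1.51 and 2.54 CPM in TLS cortex. T0 cortex stood between by its median, at 0.860, 1.04 and 1.83 CPM. The groups overlap, and the log2 difference of TLS from control was 1.02 (SE 0.273, edgeR adjusted p = 0.028, 7 of 8 animals above the control mean of their sex). Ccnb1, cyclin B1, the partner of Cdk1 at mitotic entry, was at 0, 0.342 and 0.700 CPM in control cortex and at 0.554, 0.843 and 1.29 CPM in TLS cortex, with T0 at 0.443, 0.603 and 1.07 CPM. Its log2 difference was 1.32 (SE 0.348, edgeR adjusted p = 0.0276, 8 of 8 animals). The control libraries held 0 to 12 Ccnb1 counts, and the library at 0 counts allows up to 0.154 CPM (3 counts).

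Ube2c was at 0, 0.174 and 0.565 CPM in control cortex, at 0.152, 0.711 and 1.02 CPM in TLS cortex and at 0.155, 0.241 and 0.568 CPM in T0 cortex. The TLS and control ranges overlap, with most TLS animals above every control. The log2 difference was 1.70 (SE 0.470, edgeR adjusted p = 0.0337, 7 of 8 animals). It rests on 0 to 11 counts per control library and 3 to 23 per TLS library, and the 2 control libraries at 0 counts allow up to 0.195 and 0.211 CPM. Ube2c overlaps the muscle gene Tnnc2 in the annotation, and since it is not given whether the counting used strand, reads of the pair cannot be told apart.

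**Figure D2:**
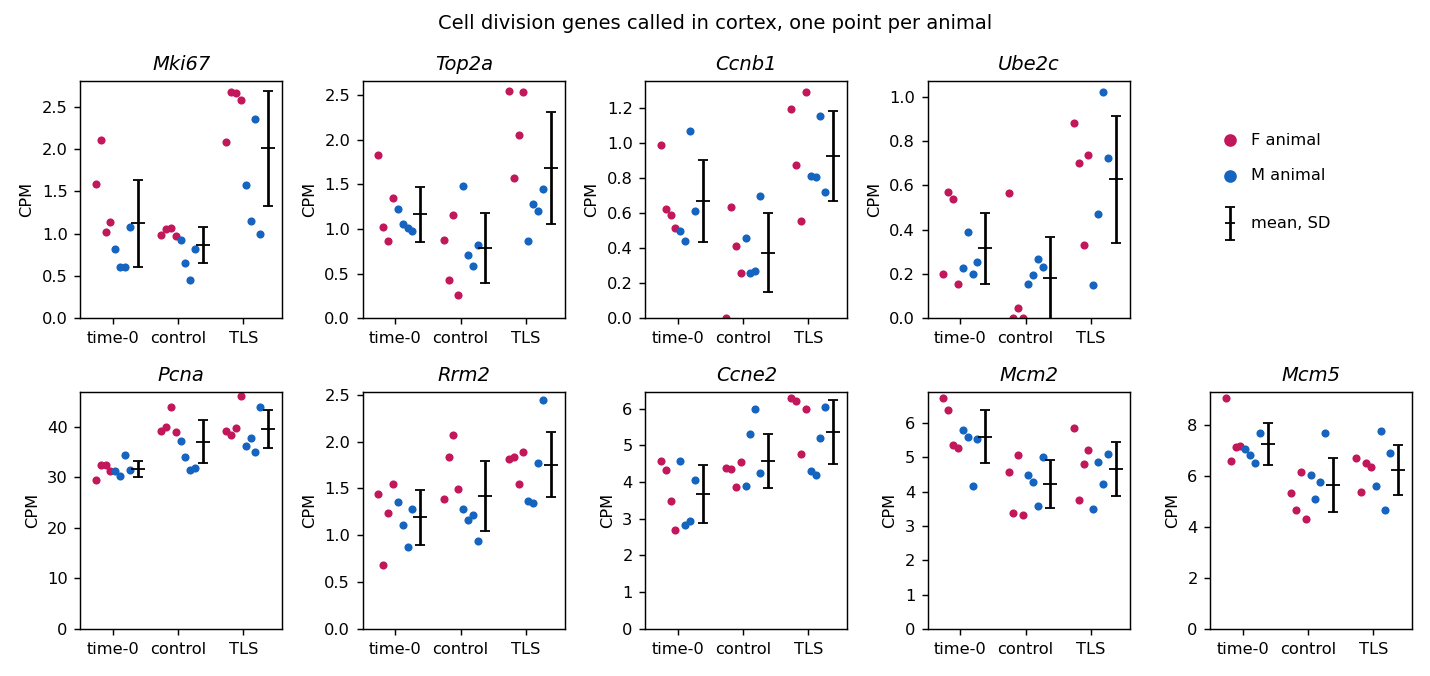
CPM of the members called in cortex, 1 point per animal (pink female, blue male), for time-0, control and TLS mice, with the mean and SD of each group. Mki67, Top2a, Ccnb1 and Ube2c lie higher in TLS than in control animals, with overlapping ranges, and Pcna lies higher in TLS than in T0 animals without overlap.

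Other mitosis members in cortex did not pass the test. Kif11, the kinesin that pushes spindle poles apart, had a log2 difference of 0.65 (edgeR adjusted p = 0.127), Prc1, which bundles the midzone spindle, 0.78 (adjusted p = 0.18) and Foxm1 0.47 (adjusted p = 0.179). The 4 tested mitotic kinases and checkpoint members had a median of −0.04. Cdk1 itself was too low to test, at 0 to 0.493 CPM in control and 0.0888 to 0.831 CPM in TLS cortex. The helicase subunits were positive in 6 of 6, with a median of 0.14, and none was called, the lowest p being that of Mcm3 (0.44, edgeR adjusted p = 0.0818). Ccne1, at 13.4 to 17.0 CPM in control and 14.3 to 16.4 CPM in TLS cortex, had a log2 difference of −0.02.

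Against T0 mice, 4 members rose in TLS cortex and 0 fell, with a background of 35.7% of all genes, 18.1% higher and 17.6% lower. Pcna was at 29.4, 31.3 and 34.5 CPM in T0 cortex (lowest, median, highest) and at 35.0, 38.7 and 46.1 CPM in TLS cortex, so that the groups did not overlap. Its log2 difference was 0.32 (SE 0.0635, edgeR adjusted p = 0.000314), a call lost with the share of nuclear RNA as a covariate. Mki67 was higher by 0.86 (edgeR adjusted p = 0.0021). Ccne2 stood at a median of 3.77 CPM in T0, 4.37 CPM in control and 5.59 CPM in TLS cortex, a log2 difference of TLS from T0 of 0.54 (edgeR adjusted p = 0.00324). Rrm2, at medians of 1.26, 1.33 and 1.80 CPM in the same order, was higher by 0.55 (edgeR adjusted p = 0.027). Ccne2 overlaps Ints8 in the annotation, and reads of the pair cannot be told apart without strand.

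Control mice differed from T0 mice in 3 members in cortex, with a background of 21.2%, 10.8% higher and 10.5% lower. This comparison shares the control animals with TLS against control and the T0 animals with TLS against T0. Pcna was higher in control mice, at 31.5, 38.1 and 43.9 CPM, by 0.23 on the log2 scale (SE 0.0637, edgeR adjusted p = 0.0127). Mcm2 fell by 0.41 on the log2 scale (SE 0.127, edgeR adjusted p = 0.0226), from 4.16, 5.56 and 6.74 CPM in T0 to 3.32, 4.38 and 5.07 CPM in control cortex. Mcm5 fell by 0.37 (SE 0.118, edgeR adjusted p = 0.0274), from 6.50, 7.11 and 9.07 CPM to 4.30, 5.55 and 7.70 CPM. Both helicase genes had a median between these groups in TLS cortex, Mcm2 at a median of 4.83 CPM and Mcm5 at 6.45 CPM. Both Mcm2 and Mcm5 lost their calls without any 1 of control animals 9916 and D215 and T0 animal 1, and 1 member was called without 9916.

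Microglia and macrophage markers moved with the TLS group in cortex. Of 12 markers, all tested, 9 rose against control mice (Adgre1, C1qb, Csf1r, Ctss, Cx3cr1, Itgam, Mpeg1, P2ry12 and Tmem119), 12 were positive and the median log2 difference was 0.55. Their summed level was 437 to 750 CPM in TLS, 363 to 471 CPM in control and 313 to 390 CPM in T0 cortex, and no marker was at 0 in any library. TLS animal A5DA was at 746 CPM, and the 4 calls were kept without it. None of 8 oligodendrocyte precursor markers was called, 3 were positive, and their sums were 297 to 400 CPM in TLS and 289 to 359 CPM in control cortex. Of 8 tested neural stem cell and neuroblast markers 1, Thbs4, rose. The part of these cell types in the cortex result was not tested.

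The share of counts in the nuclear RNAs Malat1, Neat1 and Meg3 also moved with the groups in cortex, at 0.271 ± 0.0425% in TLS, 0.462 ± 0.176% in control and 0.540 ± 0.0480% in T0 libraries (SD, n = 8 each). Control libraries differed by sex label, at 0.311 ± 0.0960% in females and 0.613 ± 0.0463% in males (SD, n = 4 each). TLS libraries were at 0.273 ± 0.0441% in females and 0.268 ± 0.0475% in males, and T0 libraries at 0.568 ± 0.0365% and 0.513 ± 0.0446%. With that share as a covariate 0 members were called in TLS against control. How many of all genes were called in that fit is not given here. An unadjusted p of 6.01e-05 for Mki67 by edgeR's quasi-likelihood test did not pass in it. The log2 differences were then 1.32 for Mki67, 1.28 for Top2a, 1.63 for Ccnb1 and 2.66 for Ube2c, with edgeR adjusted p of 0.128, 0.192, 0.192 and 0.15. In TLS against T0 cortex the same covariate left 1 call, Ccne2 (0.74, edgeR adjusted p = 0.0373). The difference was then 0.14 for Pcna, 0.15 for Rrm2 and 1.02 for Mki67 (adjusted p = 0.369, 0.807 and 0.071). In control against T0 cortex it left Pcna and Mcm2, and Mcm5 was at −0.33 (adjusted p = 0.0604). The numbers in the library names of TLS and control samples do not interleave, so anything that follows that numbering cannot be told apart from the TLS state.

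The cortex values differed by sex label. The summed CPM of the 38 members was 147 to 155 CPM in the 4 female TLS animals, above all control (118 to 138 CPM) and T0 (122 to 135 CPM) animals. In the 4 male TLS animals it was 126 to 142 CPM. This sum is weighted to abundant members, since Pcna alone was at 35.0 to 46.1 CPM in TLS cortex, where Mki67 was at 1.00 to 2.67 CPM. In a fit with a term for the sex difference of the TLS effect, the median log2 difference of TLS from control in females was 0.42, with 32 of 33 members positive and Mki67 (1.29) and Top2a (1.62) called. In males it was 0.02, with 20 of 33 positive and Mki67 (1.12) called. The difference between the sexes itself was called for 0 members by edgeR's quasi-likelihood test, where 5.08% of all genes were called, and for 0 by DESeq2. At an unadjusted edgeR p under 0.05 there were 3 members, and the share of all genes at that threshold was not computed. The lowest adjusted p was that of Top2a (−1.21 male minus female, adjusted p = 0.155).

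**Figure D3:**
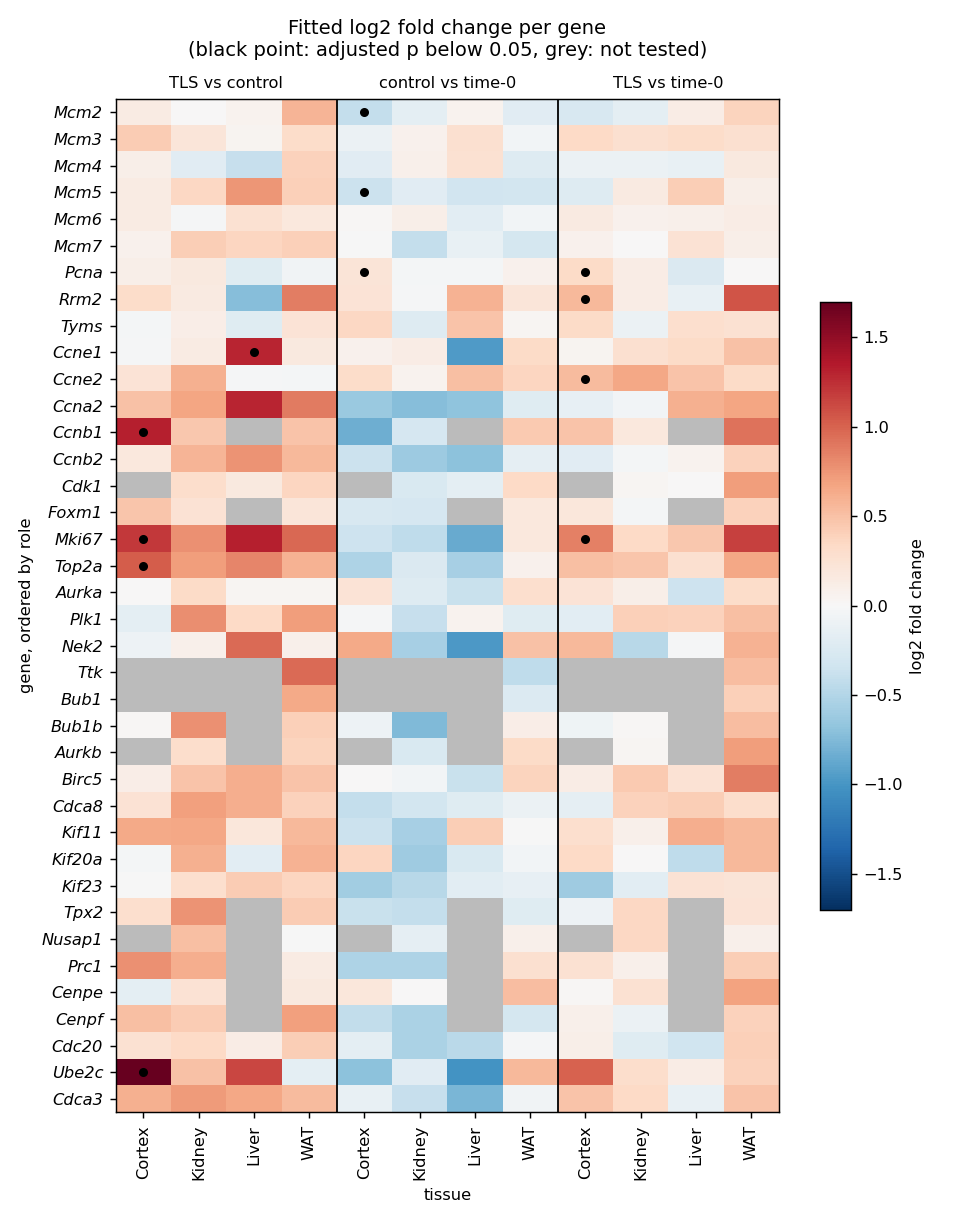
Heat map of the fitted log2 fold change of each member, in role order, for TLS against control, control against time-0 and TLS against time-0 in the 4 tissues, with black points for an adjusted p under 0.05 and grey for members not tested. TLS against control has 4 points in cortex and 1 in liver, and the TLS columns of kidney and WAT are mostly positive without a point.

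In kidney 0 of 36 members tested were called between TLS and control mice, by edgeR's quasi-likelihood test as by DESeq2 and limma. The background was 0.231% of genes called, with 0.0812% higher. At an unadjusted p under 0.05 the test picked 11 members, all positive, where 4.85% of all genes were picked as higher and 3.61% as lower. Of the 36, 34 were positive, with a median of 0.42, where 53.3% of all genes were positive. Mcm7, a helicase subunit, was at 12.3, 16.6 and 27.1 CPM in control kidney and at 17.4, 22.5 and 33.0 CPM in TLS kidney, with T0 at 20.0, 23.2 and 26.1 CPM. The ranges overlap, and the log2 difference was 0.41 (SE 0.115, edgeR adjusted p = 0.194). Mcm7 overlaps Cops6 and Ap4m1 in the annotation, and reads of these genes cannot be told apart without strand.

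Cdca3, a trigger of mitotic entry, had a log2 difference of 0.72 (edgeR adjusted p = 0.234) and Cdca8, borealin of the chromosomal passenger complex, 0.69 (adjusted p = 0.352). Mki67 was at 1.81, 3.34 and 6.69 CPM in control kidney and at 3.06, 5.37 and 10.8 CPM in TLS kidney, a log2 difference of 0.78 (adjusted p = 0.359). The 8 spindle and kinetochore members were positive in 8 of 8, with a median of 0.55, and the 4 tested kinase and checkpoint members in 4 of 4, with a median of 0.55. Control against T0 kidney, which shares the control animals, had 0 called members (background 0.312%), a median of −0.27 and 30 of 36 negative. At an unadjusted p under 0.05 it had 4 lower and 0 higher members (background 5.52% and 5.75%). Limma called 2, and its share of all genes is not given here. TLS against T0 kidney also had 0 called members (background 0.681%), with 0 at an unadjusted p under 0.05 (background 8.52% higher, 6.6% lower), 0 calls by DESeq2 or limma and a median of 0.10.

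In liver 1 of 27 members tested rose in TLS against control mice, Ccne1, with a background of 1.95% in either direction and 0.684% higher. At an unadjusted p under 0.05, 6 members were higher and 1 lower (background 9.1% and 8.42%). Ccne1 was at 0.337, 1.07 and 1.999 CPM in control liver and at 1.02, 2.60 and 4.06 CPM in TLS liver. T0 liver was at 0.836, 1.90 and 3.84 CPM, and all 3 ranges overlap. The log2 difference of TLS from control was 1.29 (SE 0.347, edgeR adjusted p = 0.0479), with 8 of 8 animals above the control mean of their sex. The call was kept in 6 of the 24 fits that each left out 1 library, with adjusted p between 0.0356 and 0.129, and it was lost without the sex covariate and with limma, which called Nek2 and Rrm2 instead.

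The 3 DNA synthesis members were all negative in liver and none was called. Rrm2 was at 1.88, 4.06 and 10.5 CPM in control liver and at 1.32, 2.75 and 6.38 CPM in TLS liver, a log2 difference of −0.72 (edgeR adjusted p = 0.16). Of the mitosis members, Nek2, a centrosome kinase, had a log2 difference of 0.96 (adjusted p = 0.177). Over the 27 tested members 21 were positive, with a median of 0.34, where the median of all genes was 0.08. Mki67 stood at 9.89 CPM in TLS animal A5DA and 5.55 CPM in B4B9, and at 0.540 to 0.875 CPM in the other 6. Control liver was at 0.650 to 2.32 CPM, and the log2 difference was 1.32 (edgeR adjusted p = 0.216), with 3 of 8 TLS animals above the control mean of their sex. Against T0 liver, TLS liver had 0 called members by edgeR's quasi-likelihood test, DESeq2 and limma (background 1.34%, higher 0.588%), and 0 at an unadjusted p under 0.05 (background 9.25% higher, 5.6% lower). Control against T0 liver had 0 called members (background 0.529%, higher 0.213%), with 2 higher and 3 lower at an unadjusted p under 0.05 (background 8.48% and 6.65%). The lowest edgeR p in that comparison was that of Tyms, with a log2 difference of 0.49 (adjusted p = 0.191). Limma called 4 members, and these backgrounds are edgeR's and not limma's.

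In WAT 0 of 38 members were called between TLS and control mice by edgeR's quasi-likelihood test, with a background of 0.00596%. At an unadjusted p under 0.05, 2 members were higher and 0 lower (background 6.54% and 4.52%). DESeq2 called 1 and limma 0, and their shares of all genes are not given here. Of the 38, 34 were positive, with a median of 0.40, where 55.7% of all genes were positive. Mcm7 was at 19.4, 22.97 and 31.5 CPM in control WAT and at 25.2, 32.9 and 39.7 CPM in TLS WAT, with T0 at 25.0, 30.2 and 33.6 CPM. The TLS and control ranges overlap, all 8 TLS animals were above the control mean of their sex, and the log2 difference was 0.41 (SE 0.0907, edgeR adjusted p = 0.159, unadjusted p = 0.000171). Mcm4 had a log2 difference of 0.39 (adjusted p = 0.381). TLS against T0 WAT had 0 called members (background 0.226%), with 5 higher and 0 lower at an unadjusted p under 0.05 (background 7.85% and 5.23%) and 0 calls by DESeq2 or limma. All 38 of 38 were positive, with a median of 0.41. Control against T0 WAT had 0 called members (background 0.161%), with 19 positive and 19 negative. At an unadjusted p under 0.05 it had 0 higher and 1 lower member (background 5.49% and 6.14%). Limma called 1, with its share of all genes not given here. Without T0 animal 6 the median was 0.55 in TLS against T0, with 38 of 38 positive, and 0.12 in control against T0, with 25 of 38 positive.

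**Figure D4:**
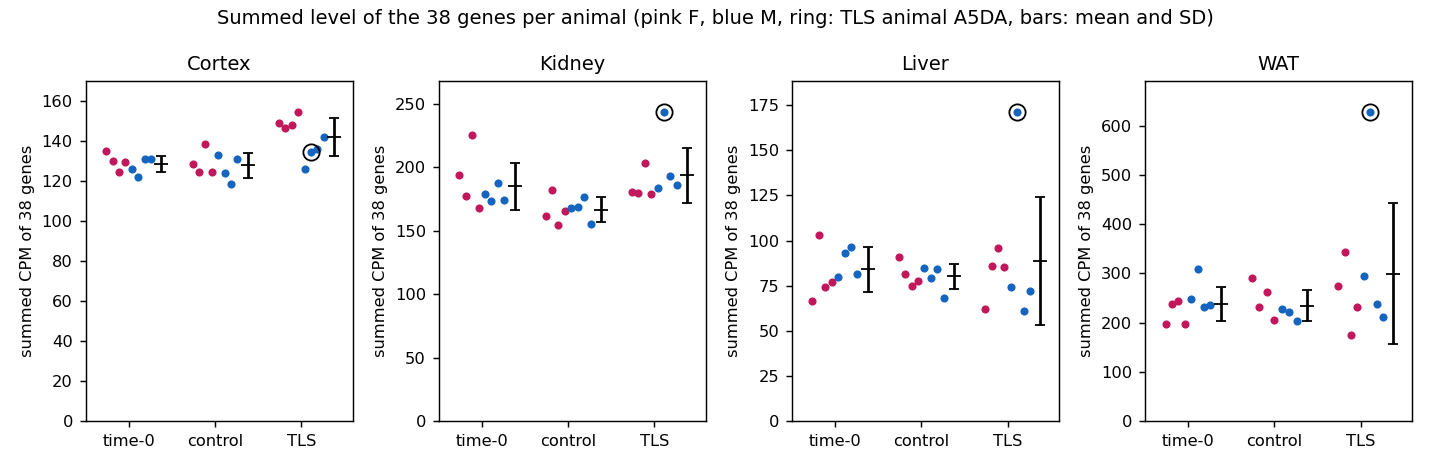
Summed CPM of the 38 members in every library (pink female, blue male), by tissue and group, with the mean and SD and the TLS animal A5DA ringed. A5DA is the highest TLS library in kidney (244 CPM), liver (171 CPM) and WAT (628 CPM) and lies within the TLS range in cortex.

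A single TLS animal, the male A5DA, stood apart in kidney, liver and WAT. Its summed CPM of the 38 members was 628 in WAT, 171 in liver and 244 in kidney, where the next TLS libraries were at 344, 95.8 and 203. It was the highest library for 33 of 38 members in WAT, 26 in liver, 11 in kidney and 0 in cortex. Mki67 reached 93.1 CPM in its WAT (2376 counts), where the next TLS library was at 17.7 CPM, Top2a 35.2 CPM (next 13.0) and Rrm2 27.2 CPM (next 8.90).

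Neutrophil markers stood at 2294 CPM in the WAT of A5DA, against at most 40.4 CPM in the other TLS and 18.7 CPM in control libraries. In its liver they stood at 1214 CPM (other TLS at most 18.1), in kidney at 272 CPM (at most 5.43) and in cortex at 65.7 CPM (at most 15.5). Its macrophage markers were at 5196 CPM in WAT (other TLS at most 1369), and its adipocyte markers at 4316 CPM, below the other TLS WAT libraries at 12071 to 18462 CPM. Hepatocyte markers in its liver were at 39329 CPM, against 43734 to 100006 CPM in the other TLS livers. Genes of tubular injury in its kidney were at 11182 CPM (other TLS at most 1846). The same genes were at 12664 CPM in its liver (at most 2776), 1040 CPM in its WAT (at most 642) and 1279 CPM in its cortex (at most 1271). Their high level was therefore not particular to kidney. The part of all these marker genes and their cells in the levels of the 38 members in A5DA was not tested.

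Without A5DA the median log2 difference of TLS from control went from 0.40 to 0.11 in WAT, with 30 of 38 positive. In liver it went from 0.34 to −0.02, with 13 of 27 positive. In kidney it went from 0.42 to 0.25, with 33 of 36 positive, and in cortex from 0.18 to 0.27, with 26 of 33 positive and the 4 calls kept. Against T0 mice the medians without A5DA were 0.09 in WAT, −0.01 in kidney and −0.20 in liver. The Mki67 difference of TLS from control became 0.22 in WAT, 0.33 in liver and 0.50 in kidney. The Mcm7 difference in WAT stayed at 0.41, and Ccne1 in liver was at 1.35 (edgeR adjusted p = 0.0395).

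**Figure D5:**
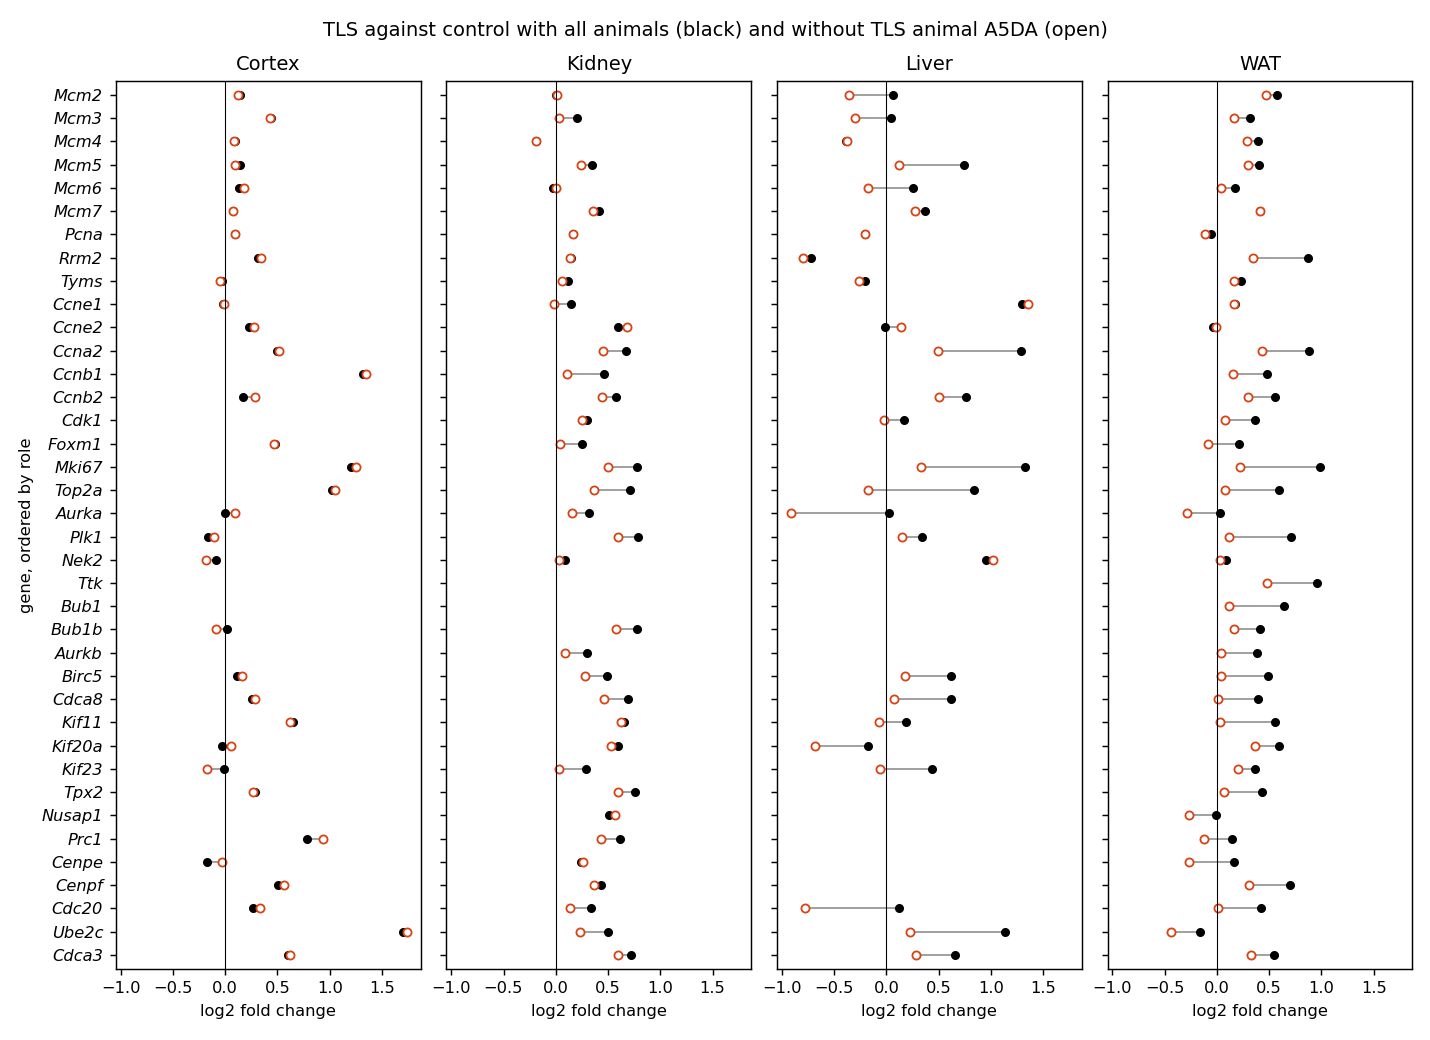
Fitted log2 fold change of TLS against control mice (x axis) for each member in role order, with all animals (black) and without A5DA (open), by tissue. Most open points of liver and WAT lie to the left of the black ones, and the medians there go from 0.34 to −0.02 and from 0.40 to 0.11.

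By role, the difference of TLS from control had the following medians. The chromosome markers Mki67 and Top2a had medians of 1.12 in cortex and 0.75 in kidney, and of 1.08 and 0.78 in liver and WAT. The mitotic cyclins and Cdk1 had medians of 0.49, 0.52, 0.76 and 0.52 in the same order, without Cdk1 in cortex and Ccnb1 in liver, which were not tested. The helicase subunits were lower, at 0.14, 0.10, 0.16 and 0.40. Ube2c and Cdc20, which act with the anaphase-promoting complex, were grouped with Cdca3, the trigger of mitotic entry. These 3 had medians of 0.61, 0.50, 0.65 and 0.42, and the chromosomal passenger complex 0.18, 0.49, 0.62 and 0.40. Of the members tested, DNA synthesis had 0.09, 0.15, −0.21 and 0.23, and the kinases and checkpoint −0.04, 0.55, 0.34 and 0.53. The spindle and kinetochore had 0.29, 0.55, 0.19 and 0.40, and the G1/S cyclins 0.10, 0.37, 0.64 and 0.07. Foxm1, not tested in liver, was at 0.47 in cortex, 0.25 in kidney and 0.21 in WAT. Without A5DA the medians in the same order were 1.15, 0.43, 0.08 and 0.15 for the chromosome markers and 0.51, 0.35, 0.49 and 0.22 for the mitotic cyclins and Cdk1. For the helicase subunits they were 0.11, 0.02, −0.24 and 0.29, and for Ube2c, Cdc20 and Cdca3 0.62, 0.23, 0.23 and 0.01. For the chromosomal passenger complex they were 0.22, 0.28, 0.13 and 0.03. For DNA synthesis they were 0.09, 0.14, −0.26 and 0.16, and for the kinases and checkpoint −0.10, 0.37, 0.15 and 0.11. For the spindle and kinetochore they were 0.27, 0.48, −0.07 and 0.05, and for the G1/S cyclins 0.13, 0.33, 0.75 and 0.07. Foxm1 was then at 0.47 in cortex, 0.04 in kidney and −0.08 in WAT.

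Of 26 members tested in all 4 tissues, 14 had a positive difference of TLS from control in each and 0 a negative one in each. Without A5DA 8 were positive in each: Birc5, Ccna2, Ccnb2, Cdca3, Cdca8, Mcm5, Mcm7 and Mki67. The same mice gave the 4 tissues, so these are not 4 independent tests. In the joint fit, the size of the TLS difference was not called different between tissues for any of the 38 members. By edgeR's quasi-likelihood test 0 were called, where 4.39% of all genes were called. At an unadjusted p under 0.05 there were 6 members, and the share of all genes at that threshold was not computed. The lowest adjusted p were those of Ccne1 (0.0597) and Rrm2 (0.0615).

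Other genes of the cell cycle were examined as lists. In cortex, TLS against control, 2 of 32 tested other mitosis genes rose: Spc25, a kinetochore subunit, by 1.46 (edgeR adjusted p = 0.0321), and Ckap2, a spindle protein, by 1.27 (adjusted p = 0.0242). Among 17 brakes of the cell cycle 1 rose, Cdkn1b, the inhibitor p27, by 0.27 (adjusted p = 0.0416). None of 31 other replication genes and none of 17 G1 cyclins, CDKs and E2F genes was called. In liver Ung, a uracil glycosylase, rose by 1.02 (adjusted p = 0.0189), Cdc25a, a G1/S phosphatase, by 0.69 (adjusted p = 0.0472), and Spc24, a kinetochore subunit, fell by 0.90 on the log2 scale (adjusted p = 0.0387), among 31, 18 and 21 tested genes. In kidney and WAT 0 genes of these lists were called. Of the other mitosis genes 35 of 37 were positive in kidney and 38 of 46 in WAT, and of the other replication genes 30 of 32 and 25 of 32. Against T0 mice, which differ in age, TLS cortex had 7 higher and 1 lower of 31 other replication genes, 8 and 2 of 32 other mitosis genes, 0 and 4 of 17 G1 genes and 5 and 3 of 17 brakes, where 18.1% of all genes were higher and 17.6% lower. In control against T0 cortex, which shares the T0 animals, the counts were 3 and 1, 3 and 1, 0 and 1, and 1 and 3, where 10.8% of all genes were higher and 10.5% lower.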

How the data were processed

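PolyA RNA from 4 tissues was sequenced in 95 libraries. The deposited table holds raw read counts per gene symbol, and per the submitters' processing notes reads were aligned with STAR 2.7.10 to mm10 (GRCm38), with DESeq2 and DESeq also named. The counting annotation and its strand setting are not given in the sources used here, and neither is the meaning of a note in the file that the table was corrected. From these counts, each tissue was fitted with edgeR 4.0.16 (R 4.3.3): TMM scaling, filterByExpr with a count minimum of 10, robust quasi-likelihood test, group and sex, Benjamini-Hochberg adjustment over all genes and a threshold of 0.05. Limma 3.58.1 and DESeq2 1.42.0 were alternatives. Joint fits over tissues compared levels and effects. The scripts were tested on simulated data. Nothing says more of separate rearing or housing than that the replicates are separate animals.

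The members, gene lists and promoter motifs were chosen with earlier results of these data known. Named are members called in any comparison, the 3 with the smallest p in each, Mki67, Top2a, Cdk1, Ccnb1, Pcna, Mcm2, Mcm5 and Ccne1, and list genes called in TLS against control. Other members and the marker genes named in the text were chosen after their values were seen. Gene positions and lengths are from GENCODE vM21. Beside Ube2c, Mcm7 and Ccne2, other members overlap protein-coding genes there: Ccna2 (Exosc9), Cdc20 (Elovl1), Kif20a (Cdc23), Cdca8 (9930104L06Rik), Nusap1 (Oip5), Prc1 (Rccd1) and Foxm1 (Tex52 and Gm44596). Their reads cannot be told apart without strand either. The same animals gave all 4 tissues, which pairs the libraries. Deviations from group and sex means were correlated between tissues over all genes above a low level, not over the members alone. The mean correlation was 0.0473 over 135 pairs from one animal and −0.0137 over 429 pairs from other animals of the group and sex.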

Additional observations from a re-analysis of the deposited data

Results flagged for a closer look

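A gap test (Dixon's, at the 95% level) was run on 117 groups of 7 or 8 animals, for the summed level and the 8 always-named members in every tissue and for the other members called in a tissue. It marked 21 groups, and 11 of the 21 were animal A5DA. The groups share animals, and the summed level is made of the same members, so the marks are not independent. Their number cannot be set against a rate for chance.

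In the TLS group, A5DA stood apart in summed CPM in kidney (244 CPM, nearest 203), liver (171 CPM, nearest 95.8) and WAT (628 CPM, nearest 344). In liver its Ccnb1 was at 2.10 CPM (nearest 0.102), Mcm2 at 6.79 CPM (nearest 3.36) and Top2a at 5.44 CPM (nearest 1.83). In kidney its Mcm5 was at 11.5 CPM (nearest 7.85). In WAT its Ccnb1 was at 6.47 CPM (nearest 3.13), Mki67 at 93.1 CPM (nearest 17.7), Pcna at 61.5 CPM (nearest 49.0) and Top2a at 35.2 CPM (nearest 13.0).

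Among T0 mice, animal T0_6 stood apart in WAT in summed CPM (309.5, nearest 247.6), Mcm2 (18.4 CPM, nearest 9.28) and Mcm5 (16.5 CPM, nearest 9.26). In that library male reproductive tract markers were at 4823 CPM (other T0 libraries at most 4.58), tubular injury genes at 6880 CPM (at most 349.7) and adipocyte markers at 7489 CPM (14758 to 16278 in the others). Animal T0_3 stood apart in kidney in summed CPM (226, nearest 194), T0_2 in liver in Top2a (2.22 CPM, nearest 1.28) and T0_1 in cortex in Mcm5 (9.07 CPM, nearest 7.68). Among controls, animal 9916 stood apart in kidney in Ccne1 (1.55 CPM, nearest 0.883) and Top2a (5.62 CPM, nearest 3.25), 983B in liver in Mki67 (2.32 CPM, nearest 1.24) and E329 in kidney in Pcna (40.8 CPM, nearest 30.5). These are values of single animals, and the part of other cell types or of any cause in them was not tested.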

How the results depend on the processing

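No called value changed sign under the alternatives run. The members' median did without A5DA, from 0.34 to −0.02 in liver in TLS against control, and in TLS against T0 from 0.10 to −0.01 in kidney and, in liver, from 0.24 to −0.20. The 4 cortex calls of TLS against control became 2 with a filter of 1 CPM in 8 libraries, which left Ccnb1 and Ube2c untested. They became 2 with the 2 groups alone and 1 in male libraries, where Ube2c was not tested. With the nuclear RNA share added and in female libraries they became 0, and 1 to 4 when 1 library was left out. The 4 cortex calls of TLS against T0 became 1 with the nuclear RNA share and 1 in males, and were 3 to 6 with 1 library left out. The 3 cortex calls of control against T0 became 1 with no low-count filter and 0 in males, and 1 to 4 with 1 library left out. The liver call of TLS against control became 2 other members, Nek2 and Rrm2, with limma voom and 0 with no low-count filter, with no sex covariate, with the 2 groups alone and in either sex alone, and 0 to 1 with 1 library left out. For comparisons with 0 calls, females alone gave 1 call in kidney and DESeq2 gave 1 in WAT in TLS against control. In control against T0, limma voom gave 2 calls in kidney, 4 in liver and 1 in WAT, and females alone gave 2 in kidney. The shares of all genes called under these alternatives are not given here, so these counts have no background beside them. The cause of these moves was not tested. Of the named members' fold changes under these settings, 3709 kept their side of the threshold or changed sign by less than their SE, 71 lost and 10 gained a call, and 38 without a call changed sign by more than their SE. Of the call counts, 375 were within 1.5 times and 44 were not.

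With the animal as a replicate block in the joint fit, 0 members again differed between tissues in their TLS effect (480 genes in all, against 918 without the block), and in the tissue levels of control mice 15 members instead of 13 were called in kidney, with 27 in cortex, 21 in liver and 31 in WAT with or without it.

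Depth limits the low members: the cortex calls of Ccnb1 and Ube2c rest on libraries with few or 0 counts, and 11 members were too low to test in liver. A missed threshold in kidney and WAT does not show that the groups are alike.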
